A study of Mus musculus with 4 samples.

Results

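NRF2 antioxidant genes were examined in K7M2, a metastatic osteosarcoma line from the mouse. They comprised the transcription factor Nfe2l2 (NRF2), its inhibitor Keap1, and the target genes Hmox1, Nqo1, Gclc, Gclm, Txnrd1, Srxn1, Gsr and Prdx1. These 10 genes were chosen by name as the core of the pathway, with earlier results of these data known. Of the 45101 probe sets on the arrays, 24 were annotated to them. Of the 10 genes, 9 had at least 1 probe set annotated to that gene alone and could be tested among 18193 named genes. Prdx1 shared all its 5 probe sets with the pseudogene Gm21399 and is described without a test.

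RNA was measured on 3 arrays of K7M2 cells over-expressing ezrinT567A-GFP (replicates 1 to 3) and on 1 array of K7M2 cells over-expressing GFP. Ezrin ties membrane proteins to the actin cortex, and the T567A form carries alanine in place of the C-terminal threonine whose phosphorylation opens the protein. All cells were grown in serum-containing DMEM and carried a GFP construct, and no drug treatment or oxidant is named in the labels. The sources used here do not give the promoter driving the constructs, the species of the ezrin or whether a line was a clone or a pool. The labels do not state that replicates came from separate cultures, so a p-value reflects spread that may be technical, with the GFP array taken to vary as those did.

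NRF2 is held in the cytoplasm by KEAP1, an adaptor that presents it to a CUL3 ubiquitin ligase for destruction. Oxidants and electrophiles modify cysteines of KEAP1, NRF2 then escapes, enters the nucleus and binds antioxidant response elements together with a small MAF protein. Because this control acts mainly on NRF2 protein, the mRNA of its targets is the usual array readout of the pathway, rather than the mRNA of Nfe2l2 itself. In tumour cells the same targets supply glutathione and thioredoxin reducing power.

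The antioxidant response element is the sequence that the members may share beyond their names, so their promoters were searched for its core, TGACNNNGC, on both strands. The windows ran from 250 bases before to 50 bases after each annotated start (RefSeq, GRCm38.p6). They were found for 7 of the 10 genes (Nfe2l2, Keap1, Nqo1, Gclm, Txnrd1, Srxn1 and Prdx1), in 9 windows because Txnrd1 had several starts. The core was present in 5 of the 9 windows, 1 for each of Nfe2l2, Gclm, Txnrd1, Srxn1 and Prdx1, and in 12.4% of all 32851 windows of the same length. In Srxn1 the match, GCTAGGTCA, lay 29 bases after the start. The other matches are given in the direction of the gene, with the core, or its reverse complement, in capitals. They began 240 bases before the start in Nfe2l2 (chr2:75704875-75704913, minus strand), 134 in Gclm (chr3:122245403-122245451, plus strand), 133 in Prdx1 (chr4:116685446-116685494, plus strand) and 92 in Txnrd1 (chr10:82859094-82859142, plus strand).
Nfe2l2: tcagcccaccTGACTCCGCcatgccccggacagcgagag
Gclm: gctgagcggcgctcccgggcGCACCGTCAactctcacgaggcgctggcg
Prdx1: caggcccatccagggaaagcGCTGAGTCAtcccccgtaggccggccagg
Txnrd1: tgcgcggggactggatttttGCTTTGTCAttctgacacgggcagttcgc
Of these 5 matches, the one in Prdx1 also contained the AP-1 motif TGACTCA. That motif was in 5.2% of all windows (searched on both strands) and in the windows of Prdx1 and Srxn1. A match describes these letters only, and no binding was measured. Sequence outside the windows was not searched, and Hmox1, Gclc and Gsr had no window. The lack of a match, as in Nqo1 and Keap1, therefore does not show that a gene lacks the element.

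The arrays were checked before the genes were compared. Array medians lay between 3.85 and 3.89 on the log2 scale. Hybridization spike-ins averaged 10.1, 11.1 and 10.4 in ezrinT567A-GFP replicates 1, 2 and 3 and 9.32 in GFP. The 18S rRNA control averaged 7.65, 11.3 and 7.76 in the same replicates and 9.09 in GFP. The osteoblast lineage genes Col1a1 and Col1a2 were bright (11.2 to 12.5 over all arrays), Sp7 was intermediate (5.22 to 5.41 in ezrinT567A-GFP and 5.05 in GFP), and Alpl and Ibsp were dimmer than the median gene (5.04). Runx2, Spp1 and Bglap had no probe set annotated to them alone. Of 6 epithelial markers 5 (Epcam, Cdh1, Krt5, Krt14 and Krt8) were below GFP on all 3 ezrinT567A-GFP arrays, against 27% of all genes. Other probe sets of Krt14 and Krt8 gave mean differences up to 0.08 and 0.32. The summed linear signal of all 6 markers was 95.8 to 121.3 in ezrinT567A-GFP and 326.8 in GFP. Of the macrophage markers, Csf1r was bright (11.9 to 12.2 in ezrinT567A-GFP and 11.9 in GFP), while Ptprc, Adgre1 and Cd68 were at or below 4.13. Endothelial and adipocyte markers were likewise all dimmer than the median gene. Of the muscle markers, Myod1 and Myog were dimmer than it, and Des was above it (5.16, 5.57 and 5.305 in ezrinT567A-GFP and 5.15 in GFP). The values of this kind of array do not reach 0, and in bulk RNA fewer cells of a type and less RNA per cell cannot be told apart. The spike-in level entered an alternative fit as a covariate. GFP had a lower spike-in level than every ezrinT567A-GFP array, so the slope of that fit rests on those 3 arrays and is extended to GFP. A difference from that fit depends on this extension and is given only as an alternative. The part of the epithelial difference in the results was not tested.

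Hmox1 had the largest difference between the groups among the 9 testable members. On average Hmox1 mRNA was 1.82 times as high in ezrinT567A-GFP as in GFP, while the mean differences of the other 8 genes lay between -0.11 and 0.14 on the log2 scale. None of the 9 genes passed limma's test over all genes (adjusted p between 0.200 and 0.977). Of all 18193 genes, 0% passed at an adjusted p under 0.05, so the absence of a call does not set these genes apart. At an unadjusted p under 0.05, 1 of the 9 passed (Hmox1), where 14% of all genes did. With 3 arrays against 1, an exact permutation of the arrays cannot go below p = 0.25.

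**Figure D1:**
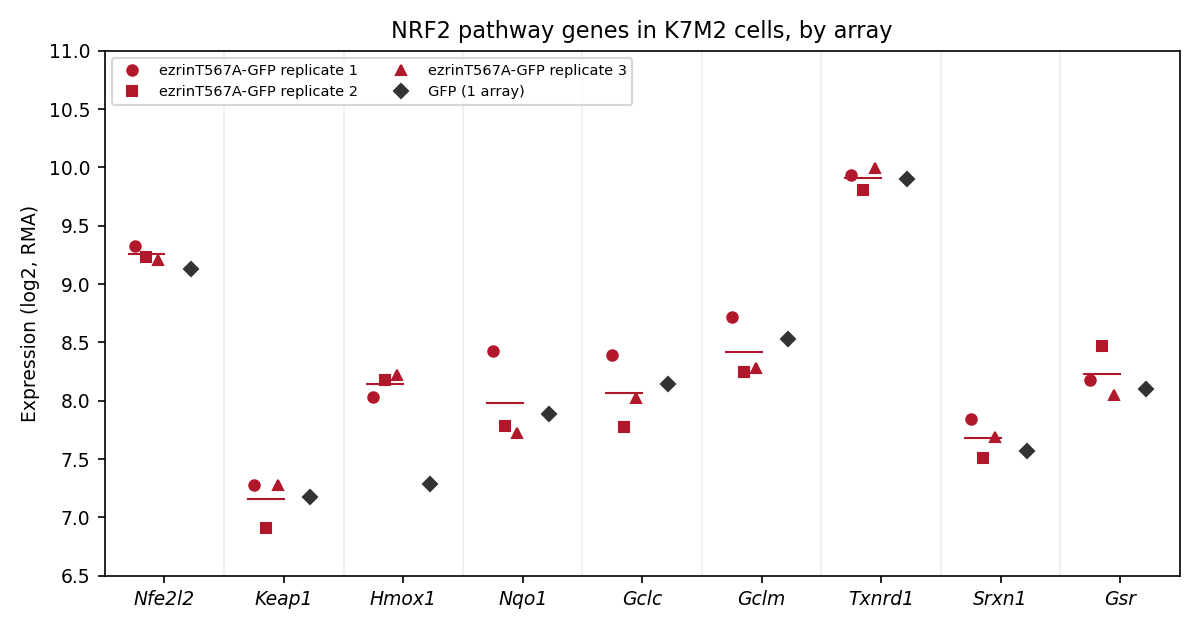
Log2 expression (RMA) of the 9 testable NRF2 pathway genes on each array, with ezrinT567A-GFP replicates in red (the line is their mean) left of the single GFP array in grey. The Hmox1 points lie between 8.03 and 8.22 in ezrinT567A-GFP, above 7.28 in GFP, while in 7 genes the GFP point lies among the replicates.

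Nfe2l2 itself (probe set 1416543_at), which encodes NRF2, measured 9.33, 9.23 and 9.20 in ezrinT567A-GFP replicates 1, 2 and 3, against 9.13 in GFP. All 3 arrays lay above GFP, but only slightly. The difference was 0.13 (SE 0.11, 95% interval -0.16 to 0.42, limma adjusted p = 0.662). All 3 arrays were above GFP in 2 of the 9 members, Nfe2l2 and Hmox1, and in 32.5% of all genes. They were all below GFP in 0 of the 9, against 27% of all genes. The groups were therefore separate in 2 of 9 members, against 59.4% of all genes. A dim second Nfe2l2 probe set (1457117_at) gave 3.81, 3.45 and 3.72 in ezrinT567A-GFP and 3.57 in GFP, and there the groups overlapped.

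Keap1 (1450746_at), the sensor that marks NRF2 for degradation, measured 7.28, 6.91 and 7.28 in ezrinT567A-GFP, against 7.17 in GFP. Replicates 1 and 3 lay above GFP and replicate 2 below it. The mean difference was -0.02 (SE 0.20, 95% interval -0.57 to 0.52, limma adjusted p = 0.976). Replicates 1 and 3 had the same Keap1 value to all deposited digits, as did 5.24% of all probe sets. The dimmer Keap1 probe set (1450747_at) was 6.11, 6.16 and 6.003 in ezrinT567A-GFP and 6.21 in GFP, lower on all 3 arrays by a mean of 0.12, with a limma adjusted p of 0.775 over all probe sets.

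Hmox1 (1448239_at) encodes haem oxygenase-1, which splits haem into biliverdin, iron and carbon monoxide. It measured 8.03, 8.18 and 8.22 in ezrinT567A-GFP replicates 1, 2 and 3, against 7.28 in GFP. The 3 replicates lay within 0.19 of each other and all were at least 0.75 above GFP. The mean was 8.14 ± 0.10 (SD, n = 3) in ezrinT567A-GFP, and the difference of 0.86 (SE 0.13, 95% interval 0.51 to 1.22) exceeded the spread between replicates. Its limma p was 0.00228 before and 0.200 after adjustment over all genes, and the size of its difference lay at percentile 97.4 of all genes. Of the 11 alternative settings, those for the prior, the probe set rule and the filter on dim genes could not alter this difference. Under the others it lay between 0.74 and 0.92, and all settings used the same GFP array. Hmox1 had 1 probe set, so no second measurement of it was available on these arrays.

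Hmox1, Nqo1 and Gsr all lie on chromosome 8, where genes as a whole were higher. Among the 516 brighter genes of chromosome 8 (mean level over 5.04), the median difference was 0.24 and 81.0% were higher in ezrinT567A-GFP. The difference of Hmox1 was larger than this median, and those of Nqo1 (0.10) and Gsr (0.14) were smaller. What a shift of the chromosome contributed to these values was not tested. For the chromosomes of the other testable members the medians were 0.11 on chromosome 2 (Nfe2l2 and Srxn1), -0.01 on chromosome 3 (Gclm), -0.04 on chromosome 9 (Keap1 and Gclc) and 0.02 on chromosome 10 (Txnrd1). Prdx1 lies on chromosome 4, where the median was 0.08.

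**Figure D2:**
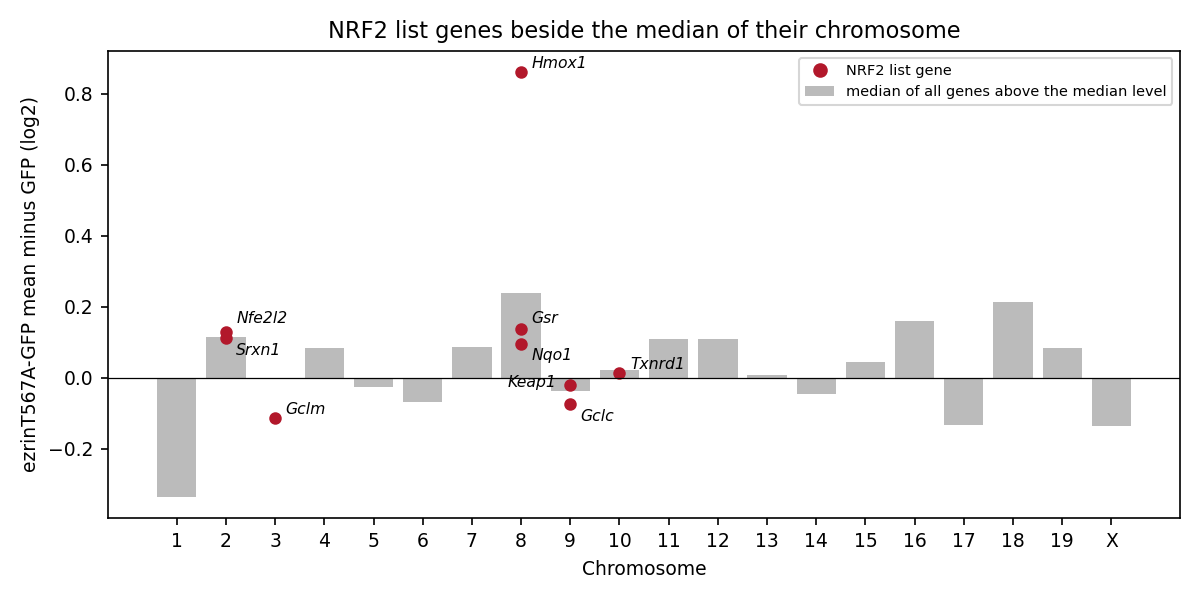
Difference between ezrinT567A-GFP mean and GFP (log2) by chromosome, with bars for the median of all genes above the median level and red points for the NRF2 pathway genes. Hmox1, at 0.86, lies above the chromosome 8 median of 0.24, and Gsr (0.14) and Nqo1 (0.10) lie below it.

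Nqo1 (1423627_at) encodes the quinone reductase that serves as the classic NRF2 reporter gene. It measured 8.43, 7.78 and 7.72 in ezrinT567A-GFP, against 7.88 in GFP. Replicate 1 was well above GFP and replicates 2 and 3 were slightly below it. The difference was 0.10 (SE 0.33, limma adjusted p = 0.928), and its 95% interval, -0.80 to 0.99, covers changes approaching 2-fold either way. Without replicate 1 the difference was -0.13. The spread among the 3 ezrinT567A-GFP arrays, 0.71, was the widest of the 9 genes.

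The glutathione genes gave a similar picture. Gclc and Gclm encode the catalytic and modifier subunits of glutamate-cysteine ligase, the rate-limiting enzyme of glutathione synthesis. Gclc (1424296_at) measured 8.39, 7.78 and 8.03 in ezrinT567A-GFP, against 8.14 in GFP. Gclm (1418627_at) measured 8.72, 8.24 and 8.28 in ezrinT567A-GFP, against 8.53 in GFP. In both genes replicate 1 was above GFP and the other two replicates were below it. The differences were -0.07 for Gclc (SE 0.27, 95% interval -0.80 to 0.65, limma adjusted p = 0.931) and -0.11 for Gclm (SE 0.23, 95% interval -0.74 to 0.51, limma adjusted p = 0.874). The second Gclc probe set (1455959_s_at) had the same order of arrays, at 7.54, 7.18 and 7.28 in ezrinT567A-GFP and 7.37 in GFP. The second Gclm probe set (1439050_at) was below GFP on all 3 arrays, at 6.91, 5.94 and 6.74 in ezrinT567A-GFP and 7.01 in GFP, and its SD of 0.52 exceeded the mean difference of -0.48.

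Gsr, glutathione reductase, returns oxidised glutathione to its reduced form. Its probe set 1421817_at measured 8.18, 8.47 and 8.05 in ezrinT567A-GFP, against 8.10 in GFP. Replicate 2 was the highest here, and replicate 3 was just below GFP. The difference was 0.14 (SE 0.20, 95% interval -0.40 to 0.67, limma adjusted p = 0.819). The second Gsr probe set (1421816_at) gave 7.86, 7.62 and 7.63 in ezrinT567A-GFP and 7.75 in GFP, a difference of -0.05, so the probe sets disagreed in sign.

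In the thioredoxin arm, Txnrd1 encodes the cytosolic selenoenzyme that reduces thioredoxin. Its brightest probe set (1421529_a_at) measured 9.94, 9.81 and 9.99 in ezrinT567A-GFP, against 9.90 in GFP. The groups overlapped and the difference was 0.01 (SE 0.11, 95% interval -0.30 to 0.32, limma adjusted p = 0.977). The other Txnrd1 probe sets differed from it. Probe set 1424486_a_at was 7.08, 6.91 and 6.66 in ezrinT567A-GFP and 7.32 in GFP, and 1424487_x_at was 6.52, 6.38 and 6.22 in ezrinT567A-GFP and 6.86 in GFP. Both were below GFP on all 3 arrays, by -0.44 (SE 0.20) and -0.48 (SE 0.17), with limma adjusted p of 0.481 and 0.391 over all probe sets. Which Txnrd1 transcripts each probe set reads was not analysed here.

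Srxn1, sulfiredoxin, repairs over-oxidised peroxiredoxins, and had 4 probe sets. The brightest (1426875_s_at) measured 7.84, 7.51 and 7.69 in ezrinT567A-GFP, against 7.57 in GFP, with a difference of 0.11 (SE 0.17, 95% interval -0.36 to 0.58, limma adjusted p = 0.832). Replicate 2 lay below GFP and the others above it. Probe set 1451680_at was above GFP on all 3 arrays, at 7.72, 7.44 and 7.38 in ezrinT567A-GFP and 7.22 in GFP, by 0.29 (SE 0.18, limma adjusted p = 0.593 over all probe sets). Probe set 1425351_at differed by 0.23 (SE 0.25) with overlapping groups, and the dimmest, 1419942_at, by -0.14 (SE 0.15) with all 3 arrays below GFP.

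Prdx1, the abundant cytosolic peroxiredoxin that reduces hydrogen peroxide, was read by 5 probe sets that also match the pseudogene Gm21399, and the signal of either cannot be separated. The brightest (1434731_x_at) measured 12.07, 11.75 and 11.84 in ezrinT567A-GFP, against 11.97 in GFP. Replicate 1 lay above GFP and the other 2 replicates below it, as in Gclc and Gclm. Among the 565 brighter genes of chromosome 4, where Prdx1 lies, the medians against GFP were 0.22, -0.01 and 0.01 in replicates 1, 2 and 3. The part of that shift in the Prdx1 values was not tested. The mean difference of the 5 probe sets ran from -0.34 to -0.03, and the groups overlapped in 4 of them. Probe set 1433866_x_at, with the difference of -0.34, was below GFP on all 3 arrays, at 10.96, 10.32 and 10.75 in ezrinT567A-GFP and 11.01 in GFP.

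**Figure D3:**
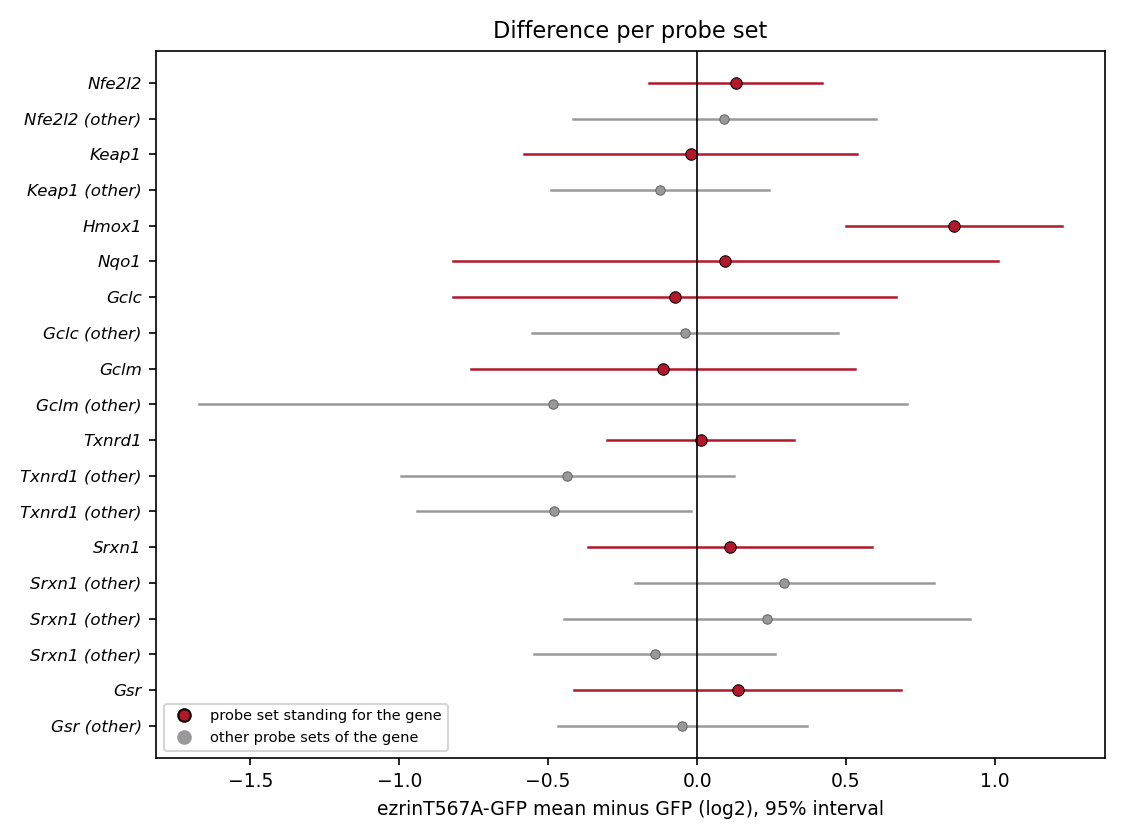
Difference between ezrinT567A-GFP mean and GFP (log2) for each of the 19 probe sets annotated to a single NRF2 pathway gene, with 95% intervals from limma over all probe sets. The interval of Hmox1 and that of a Txnrd1 probe set (-0.48) do not include 0, before any adjustment for the number of probe sets.

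Across the 19 probe sets annotated to 1 member, all 3 ezrinT567A-GFP arrays were above GFP in 3, where 30.2% of all such probe sets on the arrays were, and below it in 5, where 28.1% were. In the other 11 the groups overlapped. An unadjusted limma p under 0.05 was reached by 2 of the 19, against 12.4% of all probe sets, and none passed after adjustment (0% of all). At the level of genes 6 of 9 members had a higher mean in ezrinT567A-GFP, against 56.1% of all genes, and none was 2-fold apart, against 1.68% of all genes. The median difference of the 9 members was 0.10, beside 0.03 over all genes. The median of the 9 genes against GFP was 0.20 in replicate 1, -0.09 in replicate 2 and 0.08 in replicate 3, an SD of 0.15, so it was within the spread between replicates. Without replicate 1, 4 of the 9 were higher and the median was -0.0005, and without replicate 2, 8 of the 9 were higher, with a median of 0.10. Fitted together with the spike-in level, the median was 0.47. That fit extends a slope from the 3 ezrinT567A-GFP arrays to the lower spike-in level of GFP.

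Replicate 1 carried the highest value of the 3 ezrinT567A-GFP arrays in 5 of the 9 members (Nfe2l2, Nqo1, Gclc, Gclm and Srxn1), and in all 5 Prdx1 probe sets. Over all genes replicate 1 was the highest of the 3 in 34.6%, and in 38.2% of genes above the median level. In Nqo1, Gclc and Gclm the order of the arrays was replicate 1, then GFP, then the other two replicates, an order found in 6.39% of all genes. This order was noticed after the values had been seen and has no test. Replicate 2 was the lowest of the 3 in 5 of 9 members and in 41.4% of genes above the median level, and was also the array with the highest spike-in and 18S rRNA signals. The part of these signals in the order of the arrays was not tested.

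Other genes reported as NRF2 targets were then counted in a further list of 36 genes, of which 32 were measured. Of these 23 were higher and 9 lower in ezrinT567A-GFP, against 56.1% of all genes higher, and the median difference was 0.22 (0.35 with the spike-in covariate). At an unadjusted limma p under 0.05, 7 were higher (7.46% of all genes) and 1 was lower (6.5% of all genes), and 0 passed after adjustment. All 3 arrays lay above GFP in 17 of the 32, against 32.5% of all genes, and below it in 5, against 27% of all genes. The further lists below had similar shares above GFP, apart from a lower one in the haem and iron list. Without replicate 1, 19 of the 32 were higher and the median was 0.16. Replicate 1 was the highest of the 3 arrays in 26 of the 32 (81.2%), against 34.6% of all genes and 38.2% of genes above the median level. The medians against GFP were 0.32, 0.21 and 0.11 in replicates 1, 2 and 3. The count for replicate 1 was also taken after the values had been seen.

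Aldh3a1, an aldehyde dehydrogenase that clears lipid-derived aldehydes, had the largest difference of that list and the only one of at least 2-fold. It measured 8.06, 7.49 and 7.46 in ezrinT567A-GFP, against 5.38 in GFP, so that every replicate was at least 2.08 above GFP on the log2 scale. The difference was 2.29 (SE 0.29, limma adjusted p = 0.187). Ptgr1, which reduces prostaglandins and unsaturated aldehydes, was higher by 0.57 (SE 0.12, limma adjusted p = 0.241). Tkt, the transketolase of the pentose phosphate pathway, was higher by 0.43 (SE 0.11, limma adjusted p = 0.277). Ugdh, which makes UDP-glucuronate for conjugation, went the other way, by -0.96 (SE 0.20, limma adjusted p = 0.241), with 9.38, 8.98 and 9.37 in ezrinT567A-GFP and 10.2 in GFP. With the spike-in covariate the Ugdh difference was -0.44 and that of Tkt 0.66. The cystine importer Slc7a11 measured 5.07, 4.27 and 3.97 in ezrinT567A-GFP, against 4.06 in GFP, with replicate 1 alone well above GFP. Its difference was 0.37 (SE 0.46) with replicate 1 and 0.05 without it. Txn1, thioredoxin itself, differed by 0.01 (SE 0.14).

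**Figure D4:**
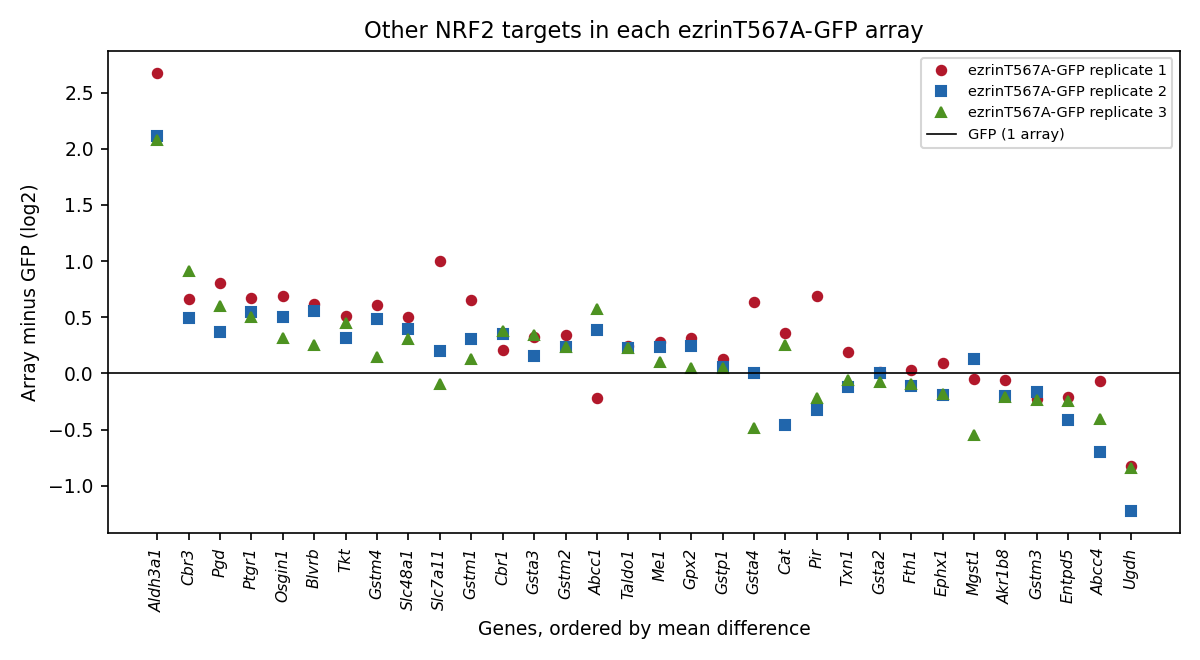
Each ezrinT567A-GFP array minus GFP (log2) for the 32 measured genes of the further NRF2 target list, ordered by mean difference, with GFP as the line at 0. Aldh3a1 is above 2 on all 3 arrays, and replicate 1 (circles) is the highest of the 3 in 26 of the 32 genes, against 34.6% of all genes.

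Regulators of NRF2 were counted next. Of 20 measured, 13 were higher and 7 lower, with a median of 0.09, where 56.1% of all genes were higher. All 3 arrays lay above GFP in 11 of the 20 (32.5% of all genes) and below it in 5 (27% of all genes). Replicate 1 was the highest of the 3 arrays in 6 of the 20 (30%), against 34.6% of all genes. An unadjusted limma p under 0.05 was reached by 5 of the 20 (14% of all genes), and by 0 after adjustment. Cul3, the scaffold of the ligase that KEAP1 serves, was lower on all 3 arrays, at 8.55, 8.26 and 8.56 in ezrinT567A-GFP and 9.32 in GFP. The Cul3 difference was -0.87 (SE 0.17, limma adjusted p = 0.232), and its 5 probe sets ran from -1.05 to -0.71. Cul3 lies on chromosome 1, where the median of 510 genes was -0.34. The part of that shift in the Cul3 value was not tested. With the spike-in covariate the Cul3 difference was -0.48.

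Sqstm1 encodes p62, an autophagy receptor that can sequester KEAP1 and is itself an NRF2 target. It measured 10.9, 10.7 and 10.6 in ezrinT567A-GFP, against 10.1 in GFP, and was higher by 0.69 (SE 0.16, limma adjusted p = 0.263). A second Sqstm1 probe set gave -0.24. Nfe2l1, which encodes the related factor NRF1, was higher by 0.73 (SE 0.21, limma adjusted p = 0.287), and by 0.21 with the spike-in covariate. The coactivator gene Crebbp was lower, by -0.50 (SE 0.13, limma adjusted p = 0.281), with probe sets from -0.50 to 0.31. The gene of the NRF2 partner Mafg differed by 0.13 (SE 0.12), and its second probe set by 0.38. The repressor gene Bach1, whose protein occupies the Hmox1 elements until haem removes it, differed by 0.03 (SE 0.12), less than its standard error. Crebbp and Bach1 lie on chromosome 16, where the median of 286 brighter genes was 0.16. The part of that shift in their values was not tested.

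Among 25 measured redox enzymes outside the 10 members, 17 were higher and 8 lower, against 56.1% of all genes higher. The median was 0.20, and 0.13 without replicate 1. All 3 arrays lay above GFP in 13 of the 25 (32.5% of all genes) and below it in 7 (27% of all genes). Replicate 1 was the highest of the 3 arrays in 14 of the 25 (56%), against 34.6% of all genes and 38.2% of genes above the median level. At an unadjusted limma p under 0.05, 6 were higher (7.46% of all genes) and 2 lower (6.5% of all genes), and 0 passed after adjustment. Gpx7, a peroxidase of the endoplasmic reticulum, measured 7.59, 7.56 and 7.59 in ezrinT567A-GFP, against 6.66 in GFP, and was higher by 0.92 (SE 0.11, limma adjusted p = 0.187). Prdx4, the peroxiredoxin of the same compartment, was higher by 0.94 (SE 0.22, limma adjusted p = 0.255), with probe sets from 0.10 to 0.94. Gss, which completes glutathione after the Gclc and Gclm step, measured 7.85, 7.70 and 7.66 in ezrinT567A-GFP, against 6.92 in GFP. The Gss difference was 0.81 (SE 0.14, limma adjusted p = 0.217) and its 2 probe sets gave 0.81 and 1.01. Gpx1, the cytosolic glutathione peroxidase, was lower, at 10.5, 10.2 and 10.4 in ezrinT567A-GFP and 11.1 in GFP, by -0.74 (SE 0.15, limma adjusted p = 0.239). With the spike-in covariate the Gpx1 difference was -0.36.

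In the haem and iron list 7 of 10 genes were higher, against 56.1% of all genes, and 5 of 10 with the spike-in covariate. Their median difference was 0.29, and 0.19 without replicate 3. Replicate 1 was the highest of the 3 arrays in 4 of the 10 (40%), as was replicate 3. An unadjusted limma p under 0.05 was reached by 2 of the 10 (14% of all genes), and by 0 after adjustment. These 2 were Alas1, the first enzyme of haem synthesis, and Fech, which inserts iron at its last step. Alas1 measured 6.93, 7.07 and 6.83 in ezrinT567A-GFP, against 6.24 in GFP. Every replicate exceeded GFP, and Alas1 was higher by 0.71 (SE 0.15, limma adjusted p = 0.241). Its second probe set gave 0.05. Fech differed by 0.39 (SE 0.12, limma adjusted p = 0.312), with probe sets from -0.33 to 0.39. Fech lies on chromosome 18, where the median of 221 brighter genes was 0.21. The part of that shift in the Fech value was not tested. All 3 arrays lay above GFP in 4 of the 10 genes (32.5% of all genes) and below it in 0 (27% of all genes). The 4 included the iron genes Hfe (0.40, SE 0.24) and Slc11a2 (0.40, SE 0.30). Without replicate 1 Hfe and Slc11a2 differed by 0.25 and 0.21, and with the spike-in covariate by 0.66 and 1.14. Hmox2, the constitutive haem oxygenase, measured 8.01, 9.18 and 9.23 in ezrinT567A-GFP, against 8.36 in GFP. Replicate 1 lay below GFP and the other 2 replicates above it. The Hmox2 difference was 0.45 (SE 0.56, limma adjusted p = 0.788), and it was 0.85 without replicate 1 and 0.24 without replicate 3. Hmox2 lies on chromosome 16, where the medians of 286 brighter genes against GFP were -0.10, 0.26 and 0.33 in replicates 1, 2 and 3. The part of that shift in the Hmox2 value was not tested.

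**Figure D5:**
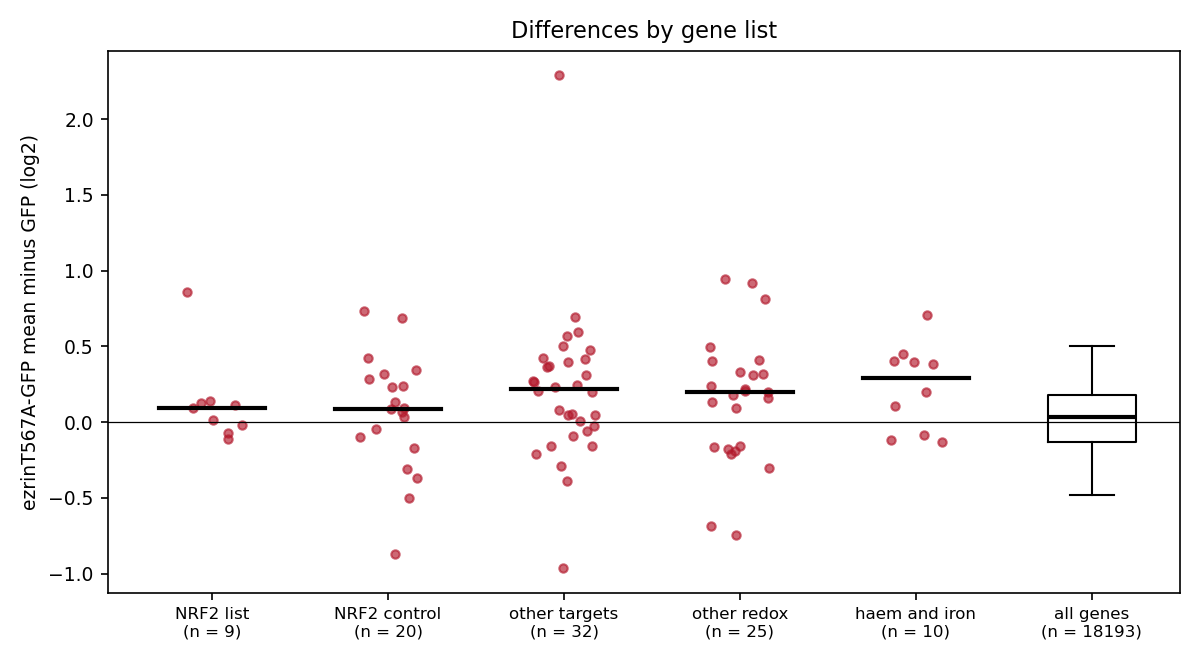
Difference between ezrinT567A-GFP mean and GFP (log2) for each measured gene of the 5 lists, with the list median as a black line, beside all 18193 genes as a box (quartiles, whiskers at the 5th and 95th percentiles). Medians are 0.10 for the NRF2 list, 0.09 for its regulators, 0.22 for other targets, 0.20 for other redox enzymes, 0.29 for haem and iron and 0.03 for all genes.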

How the data were processed

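The authors deposited log2 expression values per probe set, summarised with RMA per the submitters' processing notes. The log2 scale was read from the values, and the software version was not given. Since RMA equalises the arrays, differences in total RNA per cell are not visible. The platform annotation supplied gene names. Only probe sets with exactly 1 listed gene, and no control probe sets, entered the tests. The brightest probe set (highest mean over the 4 arrays) stood for each of 18193 genes, without a filter on dim genes.

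limma 3.58.1 in R 4.3.3 (lmFit, eBayes with a mean trend) compared ezrinT567A-GFP with GFP, two-sided, with Benjamini-Hochberg adjustment over all genes and a threshold of 0.05. The residual degrees of freedom were 2, all from ezrinT567A-GFP, and the prior was worth 2.23. A second fit covered 34945 probe sets. The number of arrays limits the precision. Scripts were tested on simulated data.

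The members and lists were chosen with earlier results of these data known. All 10 members are named, and from each further list the 4 genes with the smallest p plus Bach1, Mafg, Slc7a11, Gss, Txn1 and Hmox2. Alternatives were quantile normalization, median centring, other probe set rules, a filter on dim genes, other priors, a spike-in covariate and leaving out each replicate.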

Additional observations from a re-analysis of the deposited data

How the results depend on the processing

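None of the 9 testable members passed limma's threshold under any of the 11 alternative settings or at an adjusted p under 0.1. Without _s_at, _x_at and _a_at probe sets 8 members were tested, as Txnrd1 had no other probe set. Over all genes limma called 34 after quantile normalization, 30 after median centring, 9 under a robust prior, 6 when probe sets were averaged, 3 without dim genes and 6 at an adjusted p under 0.1, in place of 0. Nfe2l2, Hmox1 and Srxn1 kept their direction in all settings run, of which other priors and the filter on dim genes cannot alter a difference. With the spike-in covariate the median of the members was 0.47, and Gclc (0.61), Gclm (0.36), Keap1 (0.47), Gsr (-0.30) and Hmox2 (-0.67) changed sign, while Nfe2l2 (0.21), Nqo1 (0.70), Srxn1 (0.51), Txnrd1 (0.20), Slc7a11 (1.03), Txn1 (0.33) and Bach1 (0.18) kept theirs with larger differences; this fit had 1 residual degree of freedom. Txnrd1 changed sign with median centring (-0.0069) and averaged probe sets (-0.30), Bach1 with averaged probe sets (-0.019), Txn1 with median centring (-0.012), and Fech (-0.33) and Sqstm1 (-0.24) without _s_at, _x_at and _a_at probe sets. The causes were not tested. Leaving out each replicate gave Gclc -0.24 to 0.069, Gclm -0.27 to -0.03, Srxn1 0.03 to 0.20, Gsr 0.02 to 0.23, Keap1 -0.082 to 0.10, Nqo1 -0.13 to 0.22, Txnrd1 -0.028 to 0.064 and Txn1 -0.086 to 0.069. The settings for the further lists and genes were chosen after seeing the data. No paired analysis was possible because GFP had a single array. Signal over background was not analysed here, so dim probe sets are uncertain.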
